A study of Mus musculus with 32 samples.

Results

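The 10 genes described here encode channels that release calcium from the endoplasmic reticulum and pumps that clear it from the cytosol: the ryanodine receptors Ryr1, Ryr2 and Ryr3, the inositol trisphosphate (IP3) receptors Itpr1, Itpr2 and Itpr3, the endoplasmic reticulum pump Atp2a2 (SERCA2), and the plasma membrane calcium ATPases Atp2b1, Atp2b2 and Atp2b4. They were chosen by name, with no measured value in the rule, out of 24062 genes in the count tables. The choice was made with earlier results of these data known, so counts of called genes among the 10 are descriptions. All 10 had enough reads to be tested in each fit. The study collected cortex from adult male mice, older than postnatal day 70, of the strain Tg(S100a10-EGFP/Rpl10a)ES691Htz. These mice express the ribosomal protein L10a fused to EGFP under S100a10 regulatory elements, from 1 founder line, so that polysomes of the tagged cells can be purified with antibodies to EGFP (translating ribosome affinity purification, TRAP). Each library pooled 3 mice, and for each condition 4 TRAP libraries and 4 libraries of whole cortex input RNA were made. The groups were group-housed mice on vehicle (Gh), mice housed singly from weaning at postnatal day 21 for at least 7 weeks on vehicle (Sh), single-housed mice given fluoxetine at 0.167 g/L in drinking water for 21 days per the labels (15 to 21 days per the study's methods) with normal behavior (Sh + Flx), and single-housed mice given fluoxetine that were classed as anxious in the open field (Sh + Flx anxious). All groups carry the transgene, which reports the cells in which its regulatory elements are active and not a layer as such.

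Cytosolic calcium in neurons is set by release from stores and by removal. Ryanodine receptors open in response to calcium itself and amplify an entering signal, IP3 receptors open when a surface receptor coupled to phospholipase C makes IP3, SERCA pumps refill the store, and the plasma membrane ATPases expel calcium from the cell. Ryr1 is best known as the release channel of skeletal muscle and Ryr2 as that of heart muscle. In the forebrain Ryr2 is the main ryanodine receptor, Itpr1 is the main neuronal IP3 receptor, and Itpr2 and Itpr3 are better known from glial, vascular and epithelial cells.

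Depth, as counts falling in genes, ranged from 9776244 to 64788703 for TRAP and from 19265435 to 34515281 for input. S100a10, the gene whose regulatory elements drive the transgene, lay at 41.5 to 73.0 CPM (counts scaled to the same total in genes for each library) in 14 of the TRAP libraries and at 5.45 to 10.3 CPM in input. It was at 20.4 and 11.2 CPM in Sh TRAP 2 and 3, the libraries that stood apart. Both held 25397 to 40707 CPM of the nuclear RNA Malat1 against 3106 to 8117 CPM in the other TRAP libraries and 25765 to 45584 CPM in input, and the share of reads assigned to no gene was 50.3% and 58.6%, compared with 25.2% to 39.8% for the rest of TRAP. Each comparison with Sh TRAP is therefore given with and without them. Gh TRAP 2 and 3 differed by little more than sampling noise over genes (mean chi-square 1.13), so their counts were added together and Gh TRAP had n = 3. A gene was called when its p from the quasi-likelihood test of edgeR, adjusted by Benjamini-Hochberg over all genes of the fit, was under 0.05. The study calls its libraries biological replicates. In input, replicates 1 and 4, and 2 and 3, were more alike than any other pair (mean chi-square 5.29 to 10.01 against 11.3 to 25.4). In TRAP these pairs ranged from 1.13 to 64.8 and overlapped the others (17.7 to 407). Sh TRAP 1 and 4 were almost as alike as the summed pair (2.17), so values without Sh TRAP 2 and 3 rest on 2 Sh libraries that may not be independent. The p-values measure the spread between these libraries.

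The labels name the purified cells layer 5a S100a10 neurons. A list of 8 layer 5 and S100a10 neuron markers summed to 634 to 811 CPM in TRAP libraries other than Sh TRAP 2 and 3 and to 539 to 630 CPM in input, and 4 of the 8 were higher and 3 lower in Gh TRAP than in Gh input. Markers of other cells were also in the TRAP fraction. Those of meningeal fibroblasts summed to 1680 to 3722 CPM against 54.5 to 121 CPM in input, with 8 of 8 higher in Gh TRAP, and those of endothelial cells to 90.2 to 149 CPM against 9.91 to 17.6 CPM, with 6 of 8 higher.

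The 10 genes spanned more than 2 orders of magnitude in level when counts were divided by exon length. In Gh TRAP Atp2a2 was highest at 480 ± 18.1 TPM (counts per exon length scaled to a common total; mean ± SD, n = 3 here and below for Gh TRAP), followed by Atp2b1 at 267 ± 17.7 TPM. Itpr1 at 183 ± 17.2 TPM and Atp2b2 at 179 ± 10.2 TPM did not differ beyond their spread. Atp2b4 at 58.2 ± 6.16 TPM and Ryr2 at 50.6 ± 12.8 TPM overlapped as well. Itpr2 at 11.5 ± 1.67 TPM and Ryr3 at 7.65 ± 2.78 TPM formed the next overlapping pair, above Itpr3 at 2.07 ± 0.555 TPM and Ryr1 at 1.07 ± 0.378 TPM. The place of Atp2b2 depended on the length used, since it stood at 224 TPM when the longest transcript replaced the merged exons. In Gh input the order was Atp2a2 (664 ± 67.9 TPM, n = 4), Atp2b1 (427 ± 45.1), Atp2b2 (271 ± 26.5), Itpr1 (186 ± 8.07), Atp2b4 (107 ± 9.38), Ryr2 (42.9 ± 6.53), Ryr3 (8.47 ± 0.856), Itpr2 (3.98 ± 0.854), Ryr1 (1.86 ± 0.497) and Itpr3 (0.131 ± 0.114 TPM), with no overlap between neighbours. Itpr2 and Itpr3 thus stood higher in the order in TRAP than in input.

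**Figure D1:**
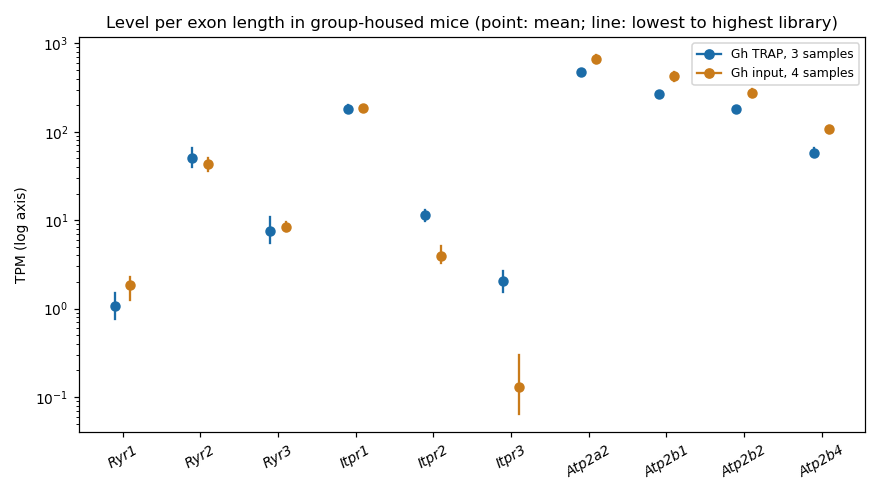
Level of each gene per exon length in Gh mice, in TPM on a log axis, for TRAP (n = 3) and input (n = 4); points are means and lines run from the lowest to the highest library. Atp2a2 is highest in both fractions, Ryr1 is lowest in TRAP (1.07 TPM) and Itpr3 is lowest in input (0.131 TPM).

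Ryr2 made up 85.5% ± 1.26 of the ryanodine receptor TPM in Gh TRAP and 80.5% ± 1.85 in Gh input, with Ryr3 at 12.7% ± 1.12 and 16.1% ± 1.83. Itpr1 made up 93.1% ± 0.995 of the IP3 receptors in Gh TRAP and 97.8% ± 0.356 in Gh input. Among the 3 plasma membrane pumps described here the shares were more even: Atp2b1 gave 52.9% ± 2.27 in Gh TRAP and 53.0% ± 1.73 in Gh input, Atp2b2 35.5% ± 1.45 and 33.7% ± 1.73, and Atp2b4 11.5% ± 0.903 and 13.3% ± 0.645.

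TRAP was then compared with input in Gh mice, to see which of these transcripts were enriched on the tagged ribosomes. Both of the minor IP3 receptors were higher in TRAP, and all 4 pumps were lower. In all, 2 of the 10 genes were called higher and 4 lower, where 21.3% of 17015 genes were called higher and 23.2% lower. The median log2 fold change of the 10 was -0.34 against -0.06 over all genes. Itpr3 was at 5.42, 3.88 and 6.97 CPM in Gh TRAP 1, 2 + 3 and 4, and at 0.145, 0.182, 0.695 and 0.186 CPM in Gh input 1 to 4. All TRAP libraries lay above all input libraries, and the fitted difference was 3.99 on the log2 scale (SE 0.45, adjusted p = 1.47e-09), 15.9-fold. It rests on few input reads, the lowest count being 5 in a Gh input library. Itpr2 was at 34.9, 40.5 and 46.7 CPM in TRAP against 10.5, 12.97, 10.2 and 15.9 CPM in input, again without overlap (log2 fold change 1.51, SE 0.15, adjusted p = 7.18e-10). The endothelial, mural and meningeal markers were higher in TRAP as well (mural list 114 to 219 CPM in TRAP other than Sh TRAP 2 and 3, 23.7 to 34.8 CPM in input, 4 of 8 higher). Astrocyte markers summed to 510 to 947 CPM in the same TRAP libraries and 355 to 570 CPM in input. Microglia markers came to 72.3 to 109 and 47.8 to 76.1 CPM, and oligodendrocyte markers, lower in TRAP, to 558 to 1097 and 1173 to 2064 CPM. The part of these cell types in the Itpr2 and Itpr3 values was not tested. In bulk RNA, more cells of a type and more RNA per cell cannot be told apart.

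The pumps went the other way. Atp2b4 was at 142, 163 and 142 CPM in Gh TRAP against 256, 235, 218 and 256 CPM in Gh input (log2 fold change -0.93, SE 0.17, adjusted p = 3.15e-05). Atp2b1, Atp2b2 and Atp2a2 were lower by -0.73 (SE 0.18, adjusted p = 0.00112), -0.65 (SE 0.17, adjusted p = 0.00193) and -0.52 (SE 0.12, adjusted p = 0.000415) on the log2 scale. None of the 4 overlapped between fractions. The share of all genes without such overlap was not counted, so this is a description and not a trait of the pumps. Ryr2, Ryr3 and Itpr1 did not pass, with log2 differences of 0.19 (SE 0.28), -0.15 (SE 0.34) and -0.08 (SE 0.17). The CPM of Itpr1 lay higher in every Gh TRAP library (487 to 561) than in the Gh input libraries (442 to 481), whereas the fitted value, which includes TMM scaling, has the other sign. Ryr1 was -0.73 (SE 0.34, adjusted p = 0.0837) in Gh. In the mean over the 4 conditions, where 70.8% of genes were called, it was lower in TRAP by -1.16 on the log2 scale (SE 0.18, adjusted p = 1.47e-06), and the 6 genes called in Gh were called in the same direction. Without Sh TRAP 2 and 3, Ryr1 was called in Gh too (log2 fold change -0.64, SE 0.23, adjusted p = 0.0198; 50.4% of genes called), and the mean over conditions added Ryr3 at -0.54 (SE 0.08, adjusted p = 3.19e-07) and Itpr1 at -0.19 (SE 0.03, adjusted p = 5.21e-06; 74% of genes called).

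**Figure D2:**
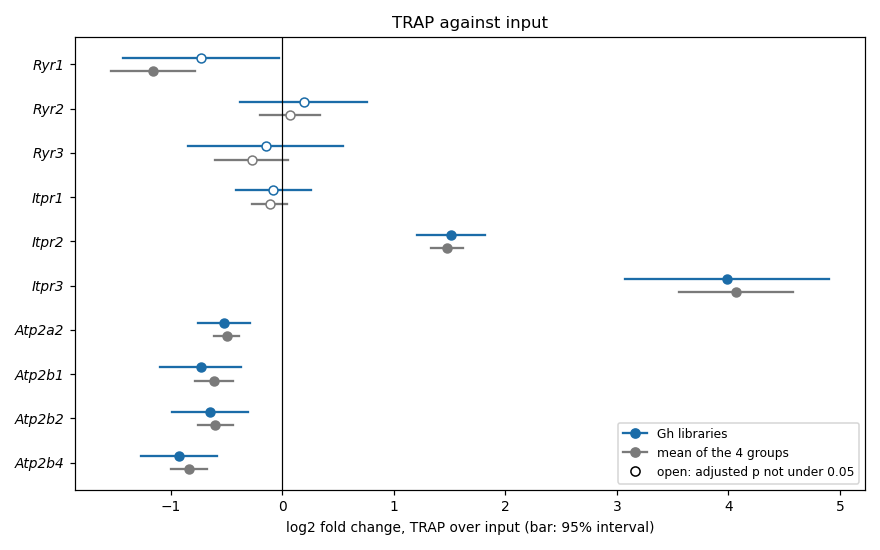
Log2 fold change of TRAP over input for each gene, with its 95% interval, in Gh mice and in the mean over the 4 conditions. Itpr3 (3.99 in Gh) and Itpr2 (1.51) lie to the right of 0, and the pumps and Ryr1 lie to the left.

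The next question was whether housing or fluoxetine moved these transcripts in the TRAP fraction. Neuron markers differed between TRAP groups. A list of 6 pan-neuronal markers summed to 12995 to 15833 CPM in Sh and 16851 to 21404 CPM in Gh. It came to 18421 to 22894 CPM in Sh + Flx and 22052 to 29457 CPM in Sh + Flx anxious. The 8 layer 5 and S100a10 neuron markers came to 463 to 650, 660 to 700, 663 to 729 and 718 to 811 CPM in the same order. All Sh libraries lay below all others for both lists. The part of this in the differences below was not tested. With all libraries, the ryanodine receptors had the largest log2 differences of both fluoxetine groups from Sh. Without Sh TRAP 2 and 3 this held for Ryr1 alone, and those of Ryr2 and Ryr3 were smaller in size than that of Itpr3 (-0.47 in Sh + Flx and -1.21 in Sh + Flx anxious). Ryr1 and Ryr2 were the genes called in the comparisons of both fluoxetine groups with Sh and in both tests of TRAP against input change, and the 250 bases before their RefSeq start sites (GRCm38.p6) are shown for that reason, with GC boxes (GGGCGG on either strand, CCGCCC as read here) in capitals. Ryr1 lies on chromosome 7 from 29003340 to 29125179 on the minus strand and its window is chr7:29125152-29125401. The window overlaps the outermost annotated end of the gene. Ryr2 lies on chromosome 13 from 11553099 to 12106945, also on the minus strand, with its window at chr13:12106946-12107195.
Ryr1: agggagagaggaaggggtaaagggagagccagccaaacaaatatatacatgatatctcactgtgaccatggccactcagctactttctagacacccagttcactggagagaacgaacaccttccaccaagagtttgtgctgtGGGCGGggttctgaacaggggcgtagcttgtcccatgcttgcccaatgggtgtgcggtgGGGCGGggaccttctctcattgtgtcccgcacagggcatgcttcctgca
Ryr2: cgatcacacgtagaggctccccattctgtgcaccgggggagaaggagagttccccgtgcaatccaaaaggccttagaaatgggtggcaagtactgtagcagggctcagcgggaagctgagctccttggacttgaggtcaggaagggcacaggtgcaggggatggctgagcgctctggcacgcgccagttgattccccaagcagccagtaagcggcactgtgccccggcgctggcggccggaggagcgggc
The Ryr1 window held 2 GC boxes and 54.8% G and C, and the Ryr2 window held 0 GC boxes with 63.2% G and C. A GC box was held by 32.7% of all 32851 such windows from RefSeq. Of the 10 genes 7 had an entry, with 10 windows in all. None of these held the cyclic AMP response element TGACGTCA, which 1.55% of all windows held, or a TATA box (TATAAA, or TTTATA on the other strand), which 12.4% held. The GC box was present 4 times for Itpr2, 1 time for Itpr3, 4 and 3 times in the windows of Atp2b1, 1, 0 and 1 times in those of Atp2b2, and 0 times for Atp2b4.

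**Figure D3:**
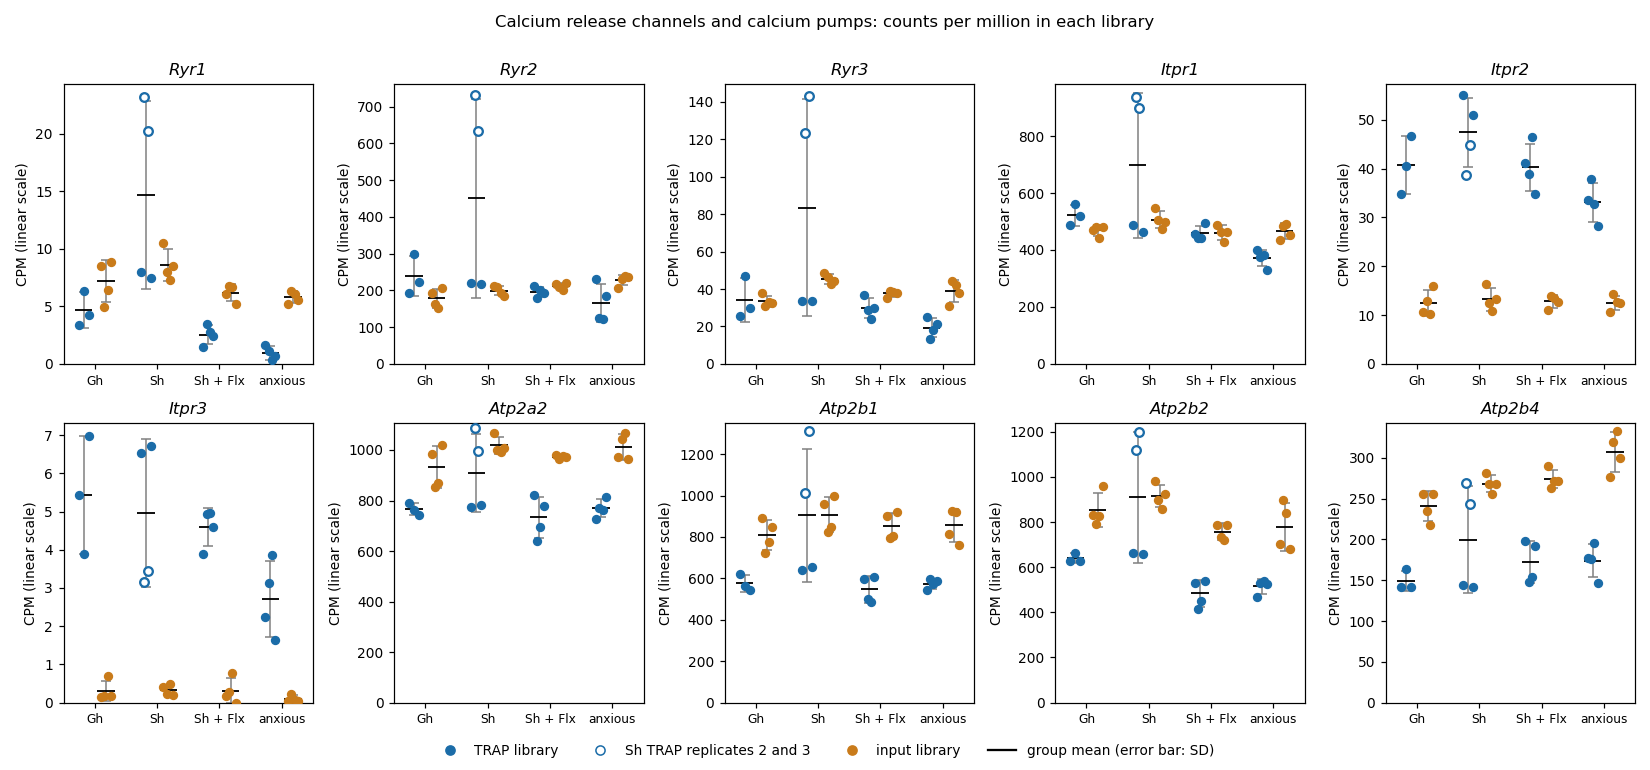
CPM of each gene in each library (linear axis from 0), by condition, with TRAP and input marked separately. In TRAP the Sh + Flx anxious libraries hold the lowest Ryr1 values (0.321 to 1.66 CPM), and Sh TRAP 2 and 3 stand above the other Sh TRAP libraries for Ryr1, Ryr2, Ryr3, Itpr1 and all 4 pumps.

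In the comparison of Sh with Gh in TRAP, which addresses the effect of isolation, edgeR called 0 of the 10 genes and 0% of 16754 genes. At an unadjusted p under 0.05 there were 7 of the 10 and 2704 of all genes. DESeq2 called 1 of the 10, Ryr1 (log2 fold change 1.77, SE 0.50, adjusted p = 0.0424), among 130 genes higher and 74 lower (1.22% of genes). In edgeR 9 of the 10 log2 fold changes were above 0, with a median of 0.56 against 0.02 over all genes, and without Sh TRAP 2 and 3 the median was 0.02 and again 0 of the 10 were called (0.0353% of genes; 0 of the 10 at an unadjusted p under 0.05). In those 2 libraries Ryr2 was at 634 to 731 CPM against 217 to 219 CPM in Sh TRAP 1 and 4.

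The comparison of Sh + Flx with Sh in TRAP sets isolated mice on fluoxetine against isolated mice on vehicle. Only the fluoxetine mice were divided by behavior, so the drug and that selection cannot be told apart in either fluoxetine group. Ryr1, Ryr2, Ryr3, Atp2b1 and Atp2b2 fell, so that 5 of the 10 genes were called lower and 0 higher. Over all 16754 genes 5.32% were called lower and 3.16% higher. The median log2 fold change of the 10 was -0.75 against -0.02 over all genes. In Sh + Flx anxious against Sh, Itpr1 and Itpr2 joined them and 7 of the 10 were lower and 0 higher, with a median of -0.90 against -0.01. Over all genes 7.76% were called lower and 4.92% higher. Without Sh TRAP 2 and 3, 1 gene was lower in Sh + Flx (Ryr1; 1.63% of genes lower) and 2 in Sh + Flx anxious (Ryr1 and Itpr2; 2.78% of genes lower). The medians of the 10 were then -0.21 and -0.33. Both comparisons share the Sh libraries. When replicates 1 and 4, and 2 and 3, were summed as 1 sample each, edgeR called 0 of the 10 and 0% of all genes in both comparisons, with 5 and 7 of the 10 at an unadjusted p under 0.05. DESeq2 on the separate libraries called 6 and 8 of the 10 lower, where 8.82% and 10.3% of all genes were lower. When Sh TRAP 1 and 4 were summed as 1 sample and Sh TRAP 2 and 3 left out, 0 of the 10 were called in Sh + Flx (0.335% of genes lower; 3 of the 10 at an unadjusted p under 0.05) and 1, Ryr1, in Sh + Flx anxious (0.594% of genes lower). That fit, added after the data were seen, assumes that the single Sh sample varies like the other groups.

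Against Gh in TRAP, edgeR called 0 of the 10 genes in Sh + Flx (0.131% of genes called; 0 of the 10 at an unadjusted p under 0.05, and 0 by DESeq2) and 0 in Sh + Flx anxious (0.233% of genes; 2 of the 10 at an unadjusted p under 0.05, and 1, Ryr1, by DESeq2, which called 0.776% of genes). With Sh TRAP 2 and 3 left out, which enter this fit only through the shared spread and scaling, 0 of the 10 were called in Sh + Flx (1.36% of genes; 2 of the 10 at an unadjusted p under 0.05). In that fit 3 of the 10 were lower in Sh + Flx anxious than in Gh: Ryr1 (log2 fold change -2.64, SE 0.42, adjusted p = 0.00153), Ryr3 (-0.84, SE 0.21, adjusted p = 0.0325) and Itpr1 (-0.46, SE 0.09, adjusted p = 0.00953), where 1.64% of genes were lower. The nuclear RNAs summed below also lay higher in all Gh TRAP libraries than in Sh + Flx anxious TRAP, and their part here was not tested. Between Sh + Flx anxious and Sh + Flx, edgeR called 0 of the 10 (0.0119% of genes; 2 of the 10, Ryr1 and Itpr3, at an unadjusted p under 0.05, and 0 by DESeq2), and the difference of Ryr1 was -1.63 on the log2 scale (SE 0.60, adjusted p = 0.581).

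**Figure D4:**
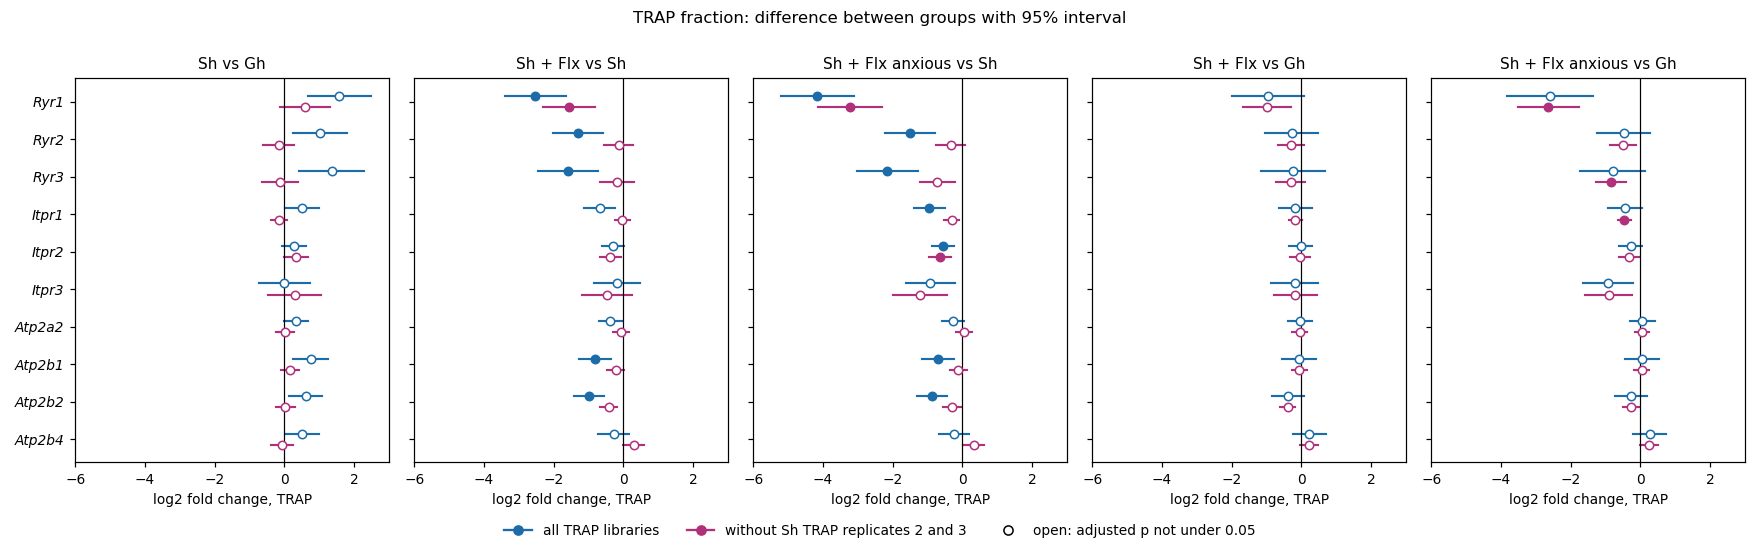
Log2 fold change between groups in TRAP with its 95% interval, for all libraries and without Sh TRAP replicates 2 and 3; filled points have an adjusted p under 0.05. Ryr1 stays filled in both fluoxetine comparisons with Sh, and Ryr2, Ryr3, Atp2b1 and Atp2b2 move towards 0 without these libraries, while Atp2b4 passes to the other side of 0.

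Ryr1, the skeletal muscle release channel, had the largest TRAP differences from Sh of the 10. It was at 3.38, 6.37 and 4.25 CPM in Gh TRAP 1, 2 + 3 and 4, and at 7.95, 23.2, 20.2 and 7.47 CPM in Sh TRAP 1 to 4. The Sh + Flx TRAP libraries held 1.48, 3.48, 2.76 and 2.40 CPM, and the Sh + Flx anxious TRAP libraries 1.66, 1.10, 0.321 and 0.656 CPM. Every Sh library was above every Gh library and above every fluoxetine library, and every Sh + Flx anxious library was below every Gh library, while the Sh + Flx and Gh libraries overlapped. The Sh against Gh difference was 1.57 on the log2 scale (SE 0.43, adjusted p = 0.191) and fell to 0.59 (SE 0.34, adjusted p = 0.482) without Sh TRAP 2 and 3. Ryr1 was 5.78-fold lower in Sh + Flx than in Sh (log2 fold change -2.53, SE 0.42, adjusted p = 0.00443) and 17.8-fold lower in Sh + Flx anxious (log2 fold change -4.16, SE 0.50, adjusted p = 0.000554). It passed without Sh TRAP 2 and 3 as well, at -1.57 (SE 0.36, adjusted p = 0.0271) and -3.23 (SE 0.44, adjusted p = 0.000507). With Sh TRAP 1 and 4 then summed as 1 sample, the call was lost in Sh + Flx (adjusted p = 0.0911) and kept in Sh + Flx anxious (adjusted p = 0.00156). The nuclear RNAs summed below also lay higher in these 2 Sh libraries than in all 8 fluoxetine TRAP libraries, and their part in the Ryr1 values was not tested. These values rest on few reads, with 20 to 55 counts per library in Sh + Flx anxious TRAP and 140 to 511 in Sh TRAP. The study's own edgeR test of these samples listed Ryr1 as higher in Sh than in Gh, a call that edgeR did not reach here. The direction of Ryr1 is thus not independent evidence. The summed skeletal muscle markers overlapped between the groups. They came to 5.20 to 8.22 CPM in Sh TRAP, 6.48 to 10.9 CPM in Sh + Flx TRAP and 7.08 to 11.3 CPM in Sh + Flx anxious TRAP, and 1 of the 9 tested was lower in Sh + Flx than in Sh, the calcium buffer gene Casq1.

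In input Ryr1 was at 8.46, 4.92, 6.45 and 8.84 CPM in Gh, 10.5, 8.02, 7.24 and 8.51 CPM in Sh, 6.04, 6.74, 6.71 and 5.21 CPM in Sh + Flx and 5.18, 6.36, 6.09 and 5.56 CPM in Sh + Flx anxious. All Sh input libraries lay above all fluoxetine input libraries, and the difference passed for Sh + Flx anxious against Sh (log2 fold change -0.56, SE 0.17, adjusted p = 0.0444) but not for Sh + Flx (-0.46, SE 0.17, adjusted p = 0.186). The former call was lost on leaving out any 1 library of the 2 groups other than Sh input 3 (adjusted p 0.053 to 0.176). The share of Ryr1 in the ryanodine receptor TPM of TRAP was 1.77% ± 0.151 in Gh, 2.96% ± 0.254 in Sh (n = 4; 3.17% ± 0.120 in Sh TRAP 1 and 4), 1.21% ± 0.461 in Sh + Flx (n = 4) and 0.531% ± 0.288 in Sh + Flx anxious (n = 4). A stretch of Ryr1 exons, 3.02% of their bases, overlaps an antisense gene model that has no row in the tables, and the amplification kit does not mark strand.

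Ryr2, the heart and main forebrain ryanodine receptor, was at 193, 299 and 223 CPM in Gh TRAP and at 219, 731, 634 and 217 CPM in Sh TRAP. Sh + Flx TRAP held 211, 179, 201 and 192 CPM and Sh + Flx anxious TRAP 231, 124, 122 and 185 CPM. The high Sh values are those of replicates 2 and 3, while Sh TRAP 1 and 4 lay within the range of Gh TRAP. Ryr2 was lower in Sh + Flx than in Sh by -1.29 on the log2 scale (SE 0.34, adjusted p = 0.0298) and in Sh + Flx anxious by -1.50 (SE 0.34, adjusted p = 0.0116). The values without Sh TRAP 2 and 3 were -0.14 (SE 0.20, adjusted p = 0.769) and -0.34 (SE 0.20, adjusted p = 0.337). The call in Sh + Flx was lost on leaving out Sh TRAP 2, Sh TRAP 3 or any Sh + Flx library (adjusted p 0.0571 to 0.105). A list of heart muscle markers summed to 7.21 to 15.3 CPM in Sh TRAP and 3.16 to 7.39 CPM in the other TRAP libraries. The atrial marker Myl7 was at 0 in all Gh, Sh and Sh + Flx TRAP libraries. The list includes Actn2, which the study reported as higher in Sh than in Gh, and the sum without Actn2 was not taken. The part of this list in the Ryr2 values was not tested. In input Ryr2 was higher in both fluoxetine groups than in Gh, and was not called against Sh (0.09, adjusted p = 0.665, and 0.20, adjusted p = 0.0817). It was at 192, 164, 151 and 206 CPM in Gh input, 217, 210, 201 and 221 CPM in Sh + Flx input, and 208, 231, 239 and 236 CPM in Sh + Flx anxious input. The difference from Gh passed for Sh + Flx (0.23, SE 0.07, adjusted p = 0.0433) and for Sh + Flx anxious (0.35, SE 0.07, adjusted p = 0.000978), the latter without overlap. The call in Sh + Flx was lost on leaving out Gh input 2, Gh input 3 or any Sh + Flx input library (adjusted p 0.0569 to 0.190).

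Ryr3, the minor brain ryanodine receptor, was at 25.4, 47.2 and 29.8 CPM in Gh TRAP and 33.8, 123, 143 and 33.7 CPM in Sh TRAP. It was at 36.7, 29.0, 23.7 and 30.1 CPM in Sh + Flx TRAP and 24.9, 13.2, 18.1 and 21.5 CPM in Sh + Flx anxious TRAP. Ryr3 was lower than in Sh by -1.59 (SE 0.40, adjusted p = 0.0264) in Sh + Flx, where the ranges overlapped, and by -2.15 (SE 0.41, adjusted p = 0.00552) in Sh + Flx anxious, where they did not. Omitting Sh TRAP 2 and 3 gave -0.19 (SE 0.24, adjusted p = 0.72) and -0.72 (SE 0.24, adjusted p = 0.0896), and leaving out either of them alone, or Sh + Flx TRAP 2, 3 or 4, also ended the call in Sh + Flx (adjusted p 0.0507 to 0.124). In input, Ryr3 was at 37.7, 30.7, 33.1 and 32.3 CPM in Gh and at 48.4, 46.2, 42.6 and 44.4 CPM in Sh. These groups did not overlap, and the log2 difference of 0.42 (SE 0.09) had an adjusted p of 0.0659 in edgeR and 0.00249 in DESeq2.

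Among the IP3 receptors, Itpr1, the main neuronal form, was at 487, 561 and 518 CPM in Gh TRAP and 488, 936, 899 and 465 CPM in Sh TRAP. The fluoxetine libraries held 457, 442, 443 and 494 CPM in Sh + Flx TRAP and 401, 375, 381 and 331 CPM in Sh + Flx anxious TRAP. The Sh + Flx anxious libraries were the lowest of all, below every library of the other groups. Itpr1 fell in Sh + Flx anxious against Sh by -0.95 on the log2 scale (SE 0.21, adjusted p = 0.0105; -0.31, SE 0.10, adjusted p = 0.0839 without Sh TRAP 2 and 3), and its difference in Sh + Flx was -0.69 (SE 0.21, adjusted p = 0.0514; -0.03, SE 0.10, adjusted p = 0.906 without them). In input it lay between 427 and 546 CPM in all 16 libraries and was called in no comparison by edgeR.

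Itpr2 was the 1 gene beside Ryr1 whose decrease in Sh + Flx anxious passed both with and without Sh TRAP 2 and 3. It was at 34.9, 40.5 and 46.7 CPM in Gh TRAP and 55.1, 38.7, 44.9 and 50.9 CPM in Sh TRAP. The fluoxetine libraries held 41.2, 38.9, 46.4 and 34.8 CPM in Sh + Flx TRAP and 33.6, 37.8, 32.8 and 28.2 CPM in Sh + Flx anxious TRAP. Unlike Ryr1, Itpr1 and the pumps, it was lower in Sh TRAP 2 and 3 than in Sh TRAP 1 and 4. The difference from Sh was -0.56 (SE 0.15, adjusted p = 0.0224) with all libraries and -0.65 (SE 0.15, adjusted p = 0.0188) without the 2. The call was lost on leaving out Sh + Flx anxious TRAP 3 or 4 (adjusted p 0.0581 and 0.0636), and on summing Sh TRAP 1 and 4 without the 2 (adjusted p = 0.097). Endothelial markers summed to 115 to 144 CPM in Sh TRAP and 90.2 to 122 CPM in Sh + Flx anxious TRAP (1 of 8 lower). Mural markers came to 97.4 to 219 and 123 to 134 CPM (0 of 8 called). Astrocyte markers came to 559 to 947 and 510 to 831 CPM, and meningeal fibroblast markers to 1155 to 3722 and 1680 to 2641 CPM. The highest Sh values of the mural, astrocyte and meningeal lists were in Sh TRAP 1 or 4. The lowest mural and meningeal values were in Sh TRAP 2 or 3. The part of these cell types in the Itpr2 difference was not tested.

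Itpr3, the least abundant IP3 receptor, was at 5.42, 3.88 and 6.97 CPM in Gh TRAP and 6.52, 3.15, 3.44 and 6.73 CPM in Sh TRAP. The fluoxetine libraries held 3.90, 4.95, 4.97 and 4.60 CPM in Sh + Flx TRAP and 2.23, 3.14, 3.87 and 1.63 CPM in Sh + Flx anxious TRAP. The Sh + Flx anxious values overlapped Sh. They lay below all Gh values only narrowly, at 3.87 against 3.88 CPM in the summed Gh TRAP 2 + 3, so this separation may depend on the summing. The differences did not pass (-0.93 against Sh, SE 0.33, adjusted p = 0.0729, and -0.93 against Gh, SE 0.34, adjusted p = 0.327). In input Itpr3 was near the detection limit, at 0.0337 to 0.769 CPM in 15 libraries and 0 counts in Sh + Flx input 4, which allows a level of up to 0.126 CPM (3 counts, covering counting error only).

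Atp2a2, the pump that refills the endoplasmic reticulum, was called in no comparison of conditions by edgeR. It was at 789, 764 and 742 CPM in Gh TRAP and 776, 1085, 995 and 784 CPM in Sh TRAP. The fluoxetine libraries held 820, 638, 697 and 778 CPM in Sh + Flx TRAP and 728, 772, 764 and 815 CPM in Sh + Flx anxious TRAP. Sh TRAP 2 and 3 were again the highest. The difference of Sh + Flx from Sh was -0.38 (SE 0.15, adjusted p = 0.118), and -0.07 (SE 0.11, adjusted p = 0.801) without these libraries.

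Of the plasma membrane pumps, Atp2b2, a fast pump of neurons and hair cells, was at 629, 664 and 626 CPM in Gh TRAP and 663, 1121, 1199 and 657 CPM in Sh TRAP. It was at 530, 415, 451 and 540 CPM in Sh + Flx TRAP and 465.8, 528, 539 and 526.3 CPM in Sh + Flx anxious TRAP. All 8 fluoxetine libraries lay below all Gh and Sh libraries. Against Gh, however, edgeR called Atp2b2 in neither fluoxetine group, with all libraries or without Sh TRAP 2 and 3. The share of all genes that separate in this way was not counted. The difference from Sh was -0.99 (SE 0.21, adjusted p = 0.0115) in Sh + Flx and -0.87 (SE 0.21, adjusted p = 0.0138) in Sh + Flx anxious, and -0.42 (SE 0.12, adjusted p = 0.0624) and -0.30 (SE 0.12, adjusted p = 0.144) without Sh TRAP 2 and 3. In input, which is RNA of whole cortex, Atp2b2 was at 831, 789, 827 and 961 CPM in Gh and 980, 897, 859 and 924 CPM in Sh. It was at 788, 733, 720 and 788 CPM in Sh + Flx and 701, 896, 839 and 679 CPM in Sh + Flx anxious. There it fell against Sh by -0.27 (SE 0.07, adjusted p = 0.0224) and -0.23 (SE 0.07, adjusted p = 0.0358), the first without overlap. Neither input call remained when the more alike replicates, 1 with 4 and 2 with 3, were summed in every group, which leaves fewer samples. These input calls were lost on leaving out Sh input 1 or 4, or Sh + Flx input 2 or 3, in the first comparison (adjusted p 0.0579 to 0.0794) and Sh input 1, 2 or 4, or Sh + Flx anxious input 1 or 4, in the second (adjusted p 0.0672 to 0.181).

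Atp2b1, the most abundant plasma membrane pump, was at 622, 562 and 544 CPM in Gh TRAP and 640, 1014, 1310 and 656 CPM in Sh TRAP. The fluoxetine libraries held 598, 499, 484 and 605 CPM in Sh + Flx TRAP and 543, 595, 571 and 588 CPM in Sh + Flx anxious TRAP. All Sh libraries lay above all others. The differences from Sh were -0.82 (SE 0.22, adjusted p = 0.0304) and -0.71 (SE 0.22, adjusted p = 0.0392), and without Sh TRAP 2 and 3 -0.22 (SE 0.12, adjusted p = 0.323) and -0.12 (SE 0.12, adjusted p = 0.588). Both calls were lost on leaving out Sh TRAP 2 or 3 alone, and on leaving out Sh + Flx TRAP 1, 2 or 3 or any Sh + Flx anxious TRAP library respectively (adjusted p 0.0538 to 0.144 over both). In input it was called in no comparison by edgeR.

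Atp2b4 was the 1 pump called higher in input, in Sh + Flx anxious. It was at 256, 235, 218 and 256 CPM in Gh input, 281, 269, 256 and 268 CPM in Sh input, 290, 263, 272 and 271 CPM in Sh + Flx input and 277, 319, 333 and 300 CPM in Sh + Flx anxious input. Sh + Flx anxious lay above all Gh libraries and was higher by 0.34 against Gh (SE 0.06, adjusted p = 0.00013) and by 0.20 against Sh (SE 0.06, adjusted p = 0.0263). Sh + Flx did not pass against Gh (0.16, SE 0.06, adjusted p = 0.089) or Sh (0.03, SE 0.06, adjusted p = 0.895) and overlapped Sh. The latter call was lost on leaving out Sh input 2, 3 or 4 or Sh + Flx anxious input 2 or 3 (adjusted p 0.0584 to 0.117). In TRAP it was at 142, 163 and 142 CPM in Gh, 145, 269, 244 and 142 CPM in Sh, 198, 148, 153 and 192 CPM in Sh + Flx and 177, 177, 195 and 147 CPM in Sh + Flx anxious, and passed in no comparison. As shares of the TPM of the 3 pumps, Atp2b2 and Atp2b4 differed in opposite directions. Atp2b2 took 35.5% ± 1.45 in Gh, 33.97% ± 1.26 in Sh, 29.7% ± 0.870 in Sh + Flx and 30.1% ± 0.885 in Sh + Flx anxious TRAP, and 33.7%, 32.8%, 29.7% and 29.6% in input. Atp2b4 took 11.5% ± 0.903, 10.4% ± 1.09, 14.7% ± 0.449 and 14.2% ± 1.60 in TRAP, and in input 13.3% and 13.4% in Gh and Sh, 14.96% in Sh + Flx and 16.3% in Sh + Flx anxious. These shares come from within each library and were not tested.

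In the input fraction as a whole the differences were small. With replicates 1 and 4, and 2 and 3, summed in every group, edgeR called 0 of the 10 in both comparisons with Sh and in Sh + Flx against Gh. The counts that follow take the libraries as separate samples. Against Gh, edgeR called 0 of the 10 in Sh (0.0829% of 15690 genes; 4 of the 10 at an unadjusted p under 0.05; 1, Ryr3, by DESeq2, which called 0.962% of genes), 1 higher in Sh + Flx (Ryr2; 3.24% of genes higher) and 2 higher in Sh + Flx anxious (Ryr2 and Atp2b4; 6.53% of genes higher). Against Sh it called 1 lower in Sh + Flx (Atp2b2; 0.784% of genes lower) and 2 lower and 1 higher in Sh + Flx anxious (Ryr1 and Atp2b2, where 2.8% of genes were lower, and Atp2b4, where 4% were higher). Between the fluoxetine groups it called 0 (0.166% of genes; 1 of the 10 at an unadjusted p under 0.05; 0 by DESeq2).

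Whether TRAP changed differently from input was tested directly in 1 model over both fractions. For Sh + Flx against Sh, 2 of the 10 genes changed more in TRAP (2.12% of 17015 genes called in this direction): Ryr1 by -2.04 on the log2 scale (SE 0.46, adjusted p = 0.0193) and Ryr2 by -1.37 (SE 0.37, adjusted p = 0.0395). For Sh + Flx anxious against Sh there were 4 (5.08% of genes in this direction): Ryr1 by -3.59 (SE 0.54, adjusted p = 0.000731), Ryr2 by -1.70 (SE 0.37, adjusted p = 0.00873), Ryr3 by -1.91 (SE 0.44, adjusted p = 0.0119) and Itpr1 by -0.84 (SE 0.22, adjusted p = 0.0193). With all libraries but Sh TRAP 2 and 3, edgeR called 0 of the 10 in the first comparison (0.899% of genes; 1 of the 10 at an unadjusted p under 0.05; Ryr1 -1.08, adjusted p = 0.132) and 1 in the second, Ryr1 (-2.63, SE 0.42, adjusted p = 0.000859; 0.824% of genes in this direction). For Sh against Gh, 0 of the 10 were called with all libraries (0% of genes; 4 of the 10 at an unadjusted p under 0.05; 0 by DESeq2). Against Gh, edgeR called 0 in Sh + Flx (0.0353% of genes; 0 of the 10 at an unadjusted p under 0.05; 0 by DESeq2) and 0 in Sh + Flx anxious (0.094% of genes; 3 of the 10 at an unadjusted p under 0.05). DESeq2 called Ryr1 in the latter (0.323% of genes), and without Sh TRAP 2 and 3 edgeR called Ryr1 (-2.29), Ryr2 (-0.82), Ryr3 (-1.0005) and Itpr1 (-0.41), where 0.98% of genes were called in this direction. Between the fluoxetine groups 0 were called (0.0118% of genes; 1 of the 10 at an unadjusted p under 0.05; 0 by DESeq2). Single libraries decided some of these calls. That of Ryr2 in Sh + Flx against Sh was lost in 12 of 16 fits that left 1 library out, that of Ryr1 there without Sh TRAP 3, and that of Itpr1 without Sh TRAP 2 or Sh TRAP 3.

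**Figure D5:**
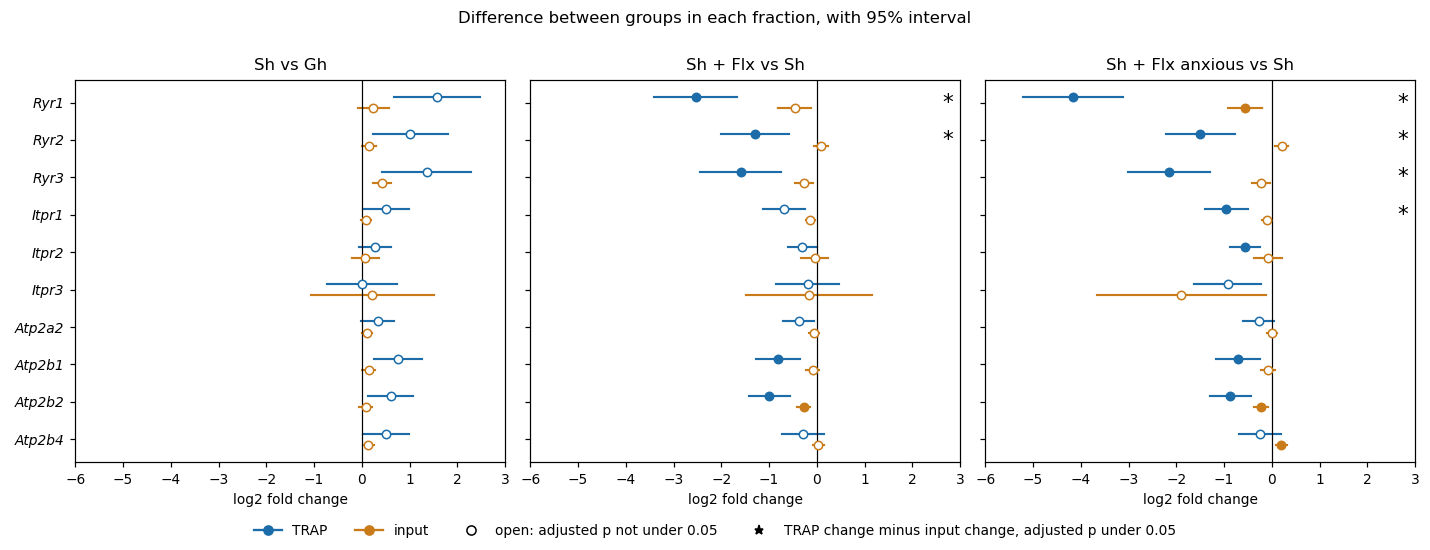
Log2 fold change between groups in TRAP and in input, with 95% intervals; filled points have an adjusted p under 0.05 and stars mark genes whose TRAP change differed from their input change. The input differences are smaller than those in TRAP for the ryanodine receptors, and the stars lie on Ryr1 and Ryr2 for Sh + Flx and on Ryr1, Ryr2, Ryr3 and Itpr1 for Sh + Flx anxious.

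The genes are long, and Sh TRAP 2 and 3 differed in the RNA they held, so the values of long genes are given beside these. Of the 10 genes 7 span more than 102 kb, as do 2275 of the tested genes. The median log2 fold change of those long genes was 0.21 in Sh against Gh TRAP, -0.23 in Sh + Flx against Sh and -0.23 in Sh + Flx anxious against Sh, and -0.04, -0.00069 and -0.0069 without Sh TRAP 2 and 3. A list of 8 nuclear RNAs summed to 9456 and 9590 CPM in Sh TRAP 1 and 4, to 34664 and 51913 CPM in Sh TRAP 2 and 3, to 8172 to 11624 CPM in Gh TRAP, to 6114 to 6651 CPM in Sh + Flx TRAP and to 4371 to 7428 CPM in Sh + Flx anxious TRAP. Sh TRAP 1 and 4 thus lay within the Gh range, and they and all Gh TRAP libraries lay above all 8 fluoxetine libraries. The list was lower in 7 of 8 genes in Sh + Flx and 8 of 8 in Sh + Flx anxious TRAP than in Sh, and in 1 and 3 of 8 without Sh TRAP 2 and 3. Its part in the differences of the 10 genes from Sh was not tested beyond leaving these libraries out. In the differences from Gh it was not tested.

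Partners of the 10 genes were examined in 7 lists with 82 tested genes. In Gh TRAP 24 were higher and 23 lower than in Gh input, 29.3% and 28% of them, near the 21.3% and 23.2% of all genes. Counts of the smaller lists are given as descriptions. The endoplasmic reticulum calcium buffers and leak genes were mostly higher (9 of 17, with 2 lower), among them Sec61a1, a subunit of the translocon (log2 fold change 1.12), Pdia3, a luminal disulfide isomerase (0.96), and Rcn1, a luminal calcium binding protein (1.22). The other calcium pumps and exchangers were mostly lower (8 of 12, with 1 higher), among them the sodium and calcium exchangers Slc8a1 (-1.34) and Slc24a2 (-0.92), while Slc24a3 was higher (0.86). Of the ryanodine receptor partners 3 were higher and 7 lower of 13, with the scaffold Homer3 at 2.26, the junctophilin Jph4 at -1.07 and Asph at -0.76. Of the IP3 receptor partners and enzymes of IP3 metabolism 6 were higher and 2 lower of 16, with Itpripl2 at 2.83 and the IP3 kinase Itpka at -1.10. Of the store-operated entry genes 2 were higher and 1 lower of 7 (the channel subunits Orai3 1.35, Orai1 1.32 and Orai2 -0.41), of the pump partners 1 and 1 of 6 (Bsg 0.77 and Nptn -0.36), and of the mitochondrial uptake genes 2 and 2 of 11 (Vdac1 -0.59).

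In Sh against Gh TRAP, edgeR called 0 of the 82. In Sh + Flx against Sh 2 were higher and 6 lower (2.44% and 7.32%, against 3.16% and 5.32% of all genes), and in Sh + Flx anxious against Sh 6 were higher and 6 lower (7.32% each, against 4.92% and 7.76%). These shares are near those of all genes. Homer2, a scaffold that binds ryanodine and IP3 receptors, was lower in both (-0.83, adjusted p = 0.00874, and -0.79, adjusted p = 0.00723), as were the junctophilin Jph3 (-0.79 and -0.70) and the Golgi calcium pump Atp2c1 (-0.55 and -0.63). Casq1, the calcium buffer of the skeletal muscle store, was lower in Sh + Flx (0.299 ± 0.253 CPM against 1.99 ± 1.0005 CPM in Sh, n = 4 each; log2 fold change -3.34, adjusted p = 0.0137). The chaperone Hspa5 was higher in both (0.46 and 0.50). Without Sh TRAP 2 and 3, 1 of the 82 was called in Sh + Flx, Homer2 (-0.54, adjusted p = 0.0163), and 4 in Sh + Flx anxious: Homer2 (-0.51), Erlin2, which marks active IP3 receptors for degradation (-0.59), and the mitochondrial regulator Mcur1 (-0.59) were lower, and Fkbp1b, the immunophilin that binds Ryr2, was higher (1.13, adjusted p = 0.0149). Casq1 then had an adjusted p of 0.0699. The median of all 82 genes was 0.02 and 0.06 in the 2 comparisons with all libraries.

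The genes whose log2 CPM followed the 10 most closely were sought by Pearson's r over the 13 TRAP libraries left without Sh TRAP 2 and 3, among 15256 genes. The nearest were Prkdc for Ryr1 (r = 0.93), Ppp1r9a for Ryr2 (0.96), Bsn for Ryr3 (0.95), Map1a for Itpr1 (0.95), Cpxm1 for Itpr2 (0.91), Acpp for Itpr3 (0.95), Rnf165 for Atp2a2 (0.90), Pcdh9 for Atp2b1 (0.93), Camk2a for Atp2b2 (0.95) and Sh2d3c for Atp2b4 (0.96). No member was the nearest gene of another. The libraries share depth, purification and group differences, and the best of so many genes is high by selection, so the values are descriptions.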

How the data were processed

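RNA from 16 TRAP and 16 input libraries was analysed from the gene counts that the authors deposited as 1 file per library. Per the labels, 2.5 ng RNA was amplified with the NuGEN Ovation RNA-Seq System V2, which does not mark strand, and sequenced as 75-base pairs in 2 lanes. The submitters' processing notes and the study's methods name TopHat2 2.0.11 with mm10 (GRCm38) and UCSC genes, and also Cufflinks 2.2.1, DESeq2 and edgeR 3.8.6. No source used here names the program that counted reads. Reads of near-identical or overlapping genes could be split by the counting. The 5 lines of each file that name no gene were left out. Tables of the authors' mean FPKM, fold changes and p-values were not used.

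Genes were filtered by expression and scaled by TMM, and groups were compared with edgeR 4.0.16 quasi-likelihood fits (R 4.3.3, limma 3.58.1) over all 4 conditions, for TRAP (16754 genes), input (15690) and both fractions (17015), with Benjamini-Hochberg adjustment over all genes. Log2 fold changes are those of the fits at the program's default prior count. The SE of each was computed as its size divided by the square root of its F statistic. A prior count of 2 was used only for the log2 CPM behind the correlations. The newer quasi-likelihood fit was chosen after an older version had been run and its calls seen; both gave the same calls for the 10 genes. CPM scale counts to the same total in genes in each library, and TPM also divide by merged RefSeq exon length (23873 genes had one). Gh TRAP 2 and 3 were summed as 1 sample. The script was tested on simulated counts. DESeq2 1.42.0, other scaling, no filter, a replicate block, summed replicates and leaving out libraries were tried as alternatives. Partner and marker genes came from 7 and 16 lists. From each partner list the 3 genes with the smallest p per comparison could be named, and all 10 members are given. The members and lists were chosen with earlier results of these data known. Intervals and limits cover counting error only where they are said to. Figures were drawn with matplotlib 3.10.9.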

Additional observations from a re-analysis of the deposited data

Results flagged for a closer look

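In Gh input, Itpr3 was at 0.695 CPM in replicate 3 against 0.145, 0.182 and 0.186 CPM in the other replicates, a gap that exceeds Dixon's 95% limit for 4 libraries. It was the 1 such case in 70 groups of libraries tested over the 10 genes, and chance alone gives about 1 in 20. The value rests on 18 counts.

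The difference from Sh was larger in TRAP than in input for 6 cases that passed the test of the difference itself. The TRAP change minus the input change, on the log2 scale, was -2.04 for Ryr1 and -1.37 for Ryr2 in Sh + Flx, and -3.59 for Ryr1, -1.70 for Ryr2, -1.91 for Ryr3 and -0.84 for Itpr1 in Sh + Flx anxious. Of these, Ryr1 in Sh + Flx anxious passed without Sh TRAP 2 and 3 as well. Those 2 libraries also held the most nuclear RNA of the TRAP libraries, and the part of that in the other 5 values was not tested beyond leaving them out.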

How the results depend on the processing

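The lower Ryr1 level in Sh + Flx and Sh + Flx anxious TRAP than in Sh kept its direction in each alternative. It passed in all but the summed replicates (-2.56 and -4.22) and, for Sh + Flx, the fit with Sh TRAP 1 and 4 summed and 2 and 3 left out (-1.57). Without Sh TRAP 2 and 3, the count of the 10 genes called was 1 in Sh + Flx and 2 in Sh + Flx anxious TRAP against Sh, 3 in Sh + Flx anxious TRAP against Gh, and, for TRAP change minus input change, 4 in Sh + Flx anxious against Gh, 0 in Sh + Flx against Sh and 1 in Sh + Flx anxious against Sh. In that setting the change differences of Ryr3 (0.10) and Itpr1 (0.12) in Sh + Flx against Sh and of Atp2b4 (0.16) in Sh + Flx anxious against Sh had the opposite sign. With Sh TRAP 1 and 4 summed as well, an alternative chosen after seeing the data, the counts were 0, 1, 3, 4, 0 and 1 in the same order, and those opposite signs remained (0.062, 0.072 and 0.11). With replicates 1 and 4, and 2 and 3, summed in every group, the count was 0 in both TRAP comparisons with Sh, in both input comparisons with Sh, in Sh + Flx input against Gh and in both change differences from Sh; fewer samples enter that fit. DESeq2 called 1 gene in Sh against Gh TRAP, 1 in Sh + Flx anxious against Gh TRAP, 1 in Sh against Gh input and 1 in the change difference of Sh + Flx anxious against Gh. With Gh TRAP 2 and 3 kept separate, 1 was called in Sh + Flx anxious against Gh TRAP.

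Leaving out 1 library at a time gave 2 to 7 genes in Sh + Flx against Sh TRAP, 0 to 1 in Sh against Gh input, 0 to 1 in Sh + Flx against Gh input, 0 to 1 in Sh + Flx against Sh input, 0 to 2 in Sh + Flx anxious against Sh input, 0 to 6 in the change difference of Sh + Flx against Sh and 3 to 7 in that of Sh + Flx anxious against Sh. Ryr1 passed in each such TRAP fit against Sh, with log2 fold changes of -2.81 to -2.13 in Sh + Flx and -4.60 to -3.75 in Sh + Flx anxious. The cause of these differences was not tested.

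The replicate numbers showed no pairing of the samples. Deviations of same-numbered TRAP libraries of different groups correlated at -0.14 to 0.12 over 24 pairs. Those of same-numbered TRAP and input libraries of 1 group correlated at -0.024 to 0.040 over 16 pairs, with the own number the best match in 6. The model over both fractions took TRAP and input libraries as independent. With the replicate block, 1 gene was called in Sh + Flx anxious against Gh TRAP (Ryr1), 4 in Sh + Flx and 6 in Sh + Flx anxious against Sh TRAP, and 1 in Sh + Flx anxious against Sh input. Depth limits Ryr1 in TRAP and Itpr3 in input.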
